A study of Mus musculus with 6 samples.

Results

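Ubiquitin-conjugating enzymes (E2 enzymes) carry activated ubiquitin, or a related small protein, from an activating enzyme (E1) to a substrate that a ligase (E3) holds. The E2 often sets which kind of chain is built, and the kind of chain decides whether the substrate is degraded by the proteasome, recruited into a signalling complex or moved within the cell. In dividing cells some E2 enzymes are best known for the cell cycle: Ube2c and Ube2s work with the anaphase-promoting complex (APC/C), the ligase that marks mitotic cyclins for destruction. Others serve DNA repair, the quality control of proteins at the endoplasmic reticulum, or the conjugation of NEDD8. Family members were taken by symbol: 37 of the 27694 gene symbols in the table began with Ube2 followed by a letter. They included 1 gene that is no E2 in spite of its symbol, Ube2cbp (an E3 ligase whose other name is Ube3d), and the pseudogenes Ube2d-ps, Ube2n-ps1 and Ube2nl. E2 genes under other symbols, such as Cdc34, were counted among the partner genes.

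The study compared 6 neural stem cell cultures from C57/Bl6 mice by RNA sequencing: 3 labelled vimentin knockout (KO) and 3 labelled wild type (WT). All were untreated and were grown in serum-free medium with FGF-2 and EGF at 20 ng/mL, which keeps such cells dividing and undifferentiated. The labels give neither the allele, nor the number of animals or clones behind the cultures, so the p-values rest on sample-to-sample variation that could be technical in part. Levels are FPKM (fragments per kilobase of transcript and per 1000000 fragments), summed over the isoforms of a gene, and so are per length. Libraries held the equivalent of 28.4 to 36.2 M reads of 150 bases. The WT 2 library stood apart: 16.4% of its FPKM lay in isoforms that were left out of the gene sums (mostly intronic, antisense or intergenic), against 3.995 to 5.49% in the other libraries. Vim RNA, the target of the knockout, was at 650, 732 and 624 FPKM in the libraries labelled KO, against 191, 179 and 186 FPKM in those labelled WT. The target was thus raised where the labels say knockout, and every direction below is that of the labels. Exchanged labels and an allele that keeps its transcript cannot be told apart here, and with exchanged labels every direction would be the opposite. Of the 8 neural stem cell markers, 7 were tested and 0 were called by limma (1 at an unadjusted p under 0.05), while Prom1 was below 0.13 FPKM in every library. Sox2, a defining marker, was listed at 0 in each library labelled KO and in WT 2, but not in WT 1 or WT 3. Sox2 shares its locus with Sox2ot and Gm27611. Sox1 was likewise listed at 0 in libraries of both labels (KO 2, KO 3 and WT 1). How reads were assigned to these genes was not tested, so the values of 0 do not show that Sox2 RNA was absent. Astrocyte and oligodendrocyte lineage markers were called in both directions, with Aldh1l1 and Olig2 higher and Gfap, Aqp4, Olig1 and Pdgfra lower in the libraries labelled KO. The astrocyte list summed to 851 to 929 FPKM in the libraries labelled KO and 575 to 1072 FPKM in those labelled WT. Its lowest sum was in WT 1, where Aldoc was at 6.40 FPKM, against 324 and 488 FPKM in WT 2 and WT 3. Aldoc shares its locus with Pigs. The part of astrocyte and oligodendrocyte lineage cells in the results was not tested. The neuron list summed to 88.9 to 137 FPKM in the libraries labelled KO and 66.2 to 178 FPKM in those labelled WT. Most of this was Map2, while Rbfox3, Snap25 and Syt1 stayed below 1 FPKM in every library. Of its 2 tested genes, 0 were called by limma. Markers of microglia, endothelium and fibroblasts summed to at most 3.36 FPKM per list in any library.

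Of the 37 members, 35 had a mean of at least 1 FPKM and were tested. Limma on log2(FPKM + 1), with Benjamini-Hochberg adjustment over all 12080 tested genes, called a gene at an adjusted p under 0.05. It called 1 member, Ube2s, which was higher in the libraries labelled KO (2.86% of those tested). Over all tested genes 6.9% were called, 3.65% higher and 3.25% lower. At an unadjusted p under 0.05 there were 8 of the 35 members, beside 2972 of all 12080 tested genes. The 8 were Ube2s, Ube2c, Ube2t, Ube2f, Ube2q1 and Ube2ql1 on the higher side and Ube2h and Ube2d1 on the lower. The 3 values labelled KO lay above the 3 values labelled WT in 6 members (16.9% of all tested genes did so), and below them in 5 members (16.4% of all tested genes). The median log2 fold change was -0.09 over the members and -0.02 over all tested genes. A positive fold change was found in 14 of the 35 members, beside 5769 of all 12080 tested genes. Summed over the family, FPKM was 756, 674 and 655 in the libraries labelled KO, against 652, 758 and 747 in those labelled WT (two-sided exact permutation p = 0.9, where 0.1 is the smallest that 3 against 3 libraries allow).

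**Figure D1:**
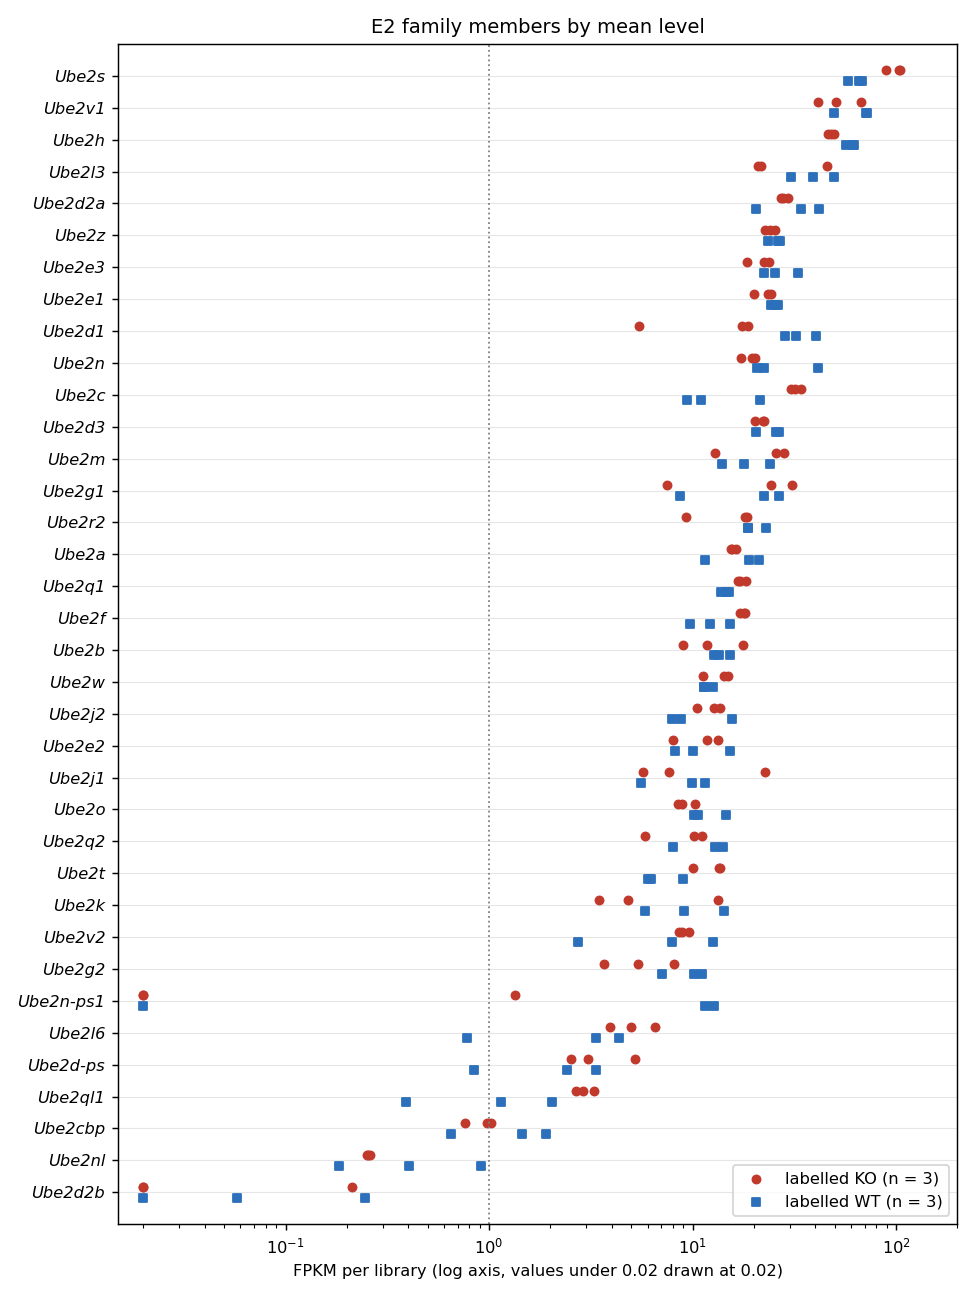
FPKM of 36 of the 37 members (log axis) in the 3 libraries labelled KO (circles) and the 3 labelled WT (squares), ordered by mean level, with the 1 FPKM limit as a dotted line. Ube2s, Ube2v1 and Ube2h have means above 40 FPKM, and groups that do not overlap are seen in 11 of the tested members.

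Levels covered a wide range. Ube2s, Ube2v1 and Ube2h had means of at least 40 FPKM over the 6 libraries. Another 10 lay between 20 and 40 FPKM and 12 between 10 and 20 FPKM. Ube2g2, Ube2k, Ube2t and Ube2v2 lay between 5 and 10 FPKM, and 5 members lay between 1 and 5 FPKM. Ube2s ranked first of the family by mean in the libraries labelled KO and second, next to Ube2v1, in those labelled WT. Ube2s averaged 99.1 ± 8.61 FPKM in the libraries labelled KO and 63.9 ± 5.04 FPKM in those labelled WT, and Ube2v1 averaged 53.0 ± 13.2 FPKM in the libraries labelled KO and 64.0 ± 12.6 FPKM in those labelled WT (SD, n = 3 each). Ube2c ranked 5 in the libraries labelled KO and 18 in those labelled WT, and Ube2d1 ranked 19 in the libraries labelled KO and 6 in those labelled WT. Replicates of a group spread widely for part of the family: the highest library was over 2 times the lowest in 9 of the 35 tested members among the libraries labelled KO and in 11 among those labelled WT.

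Ube2c and Ube2s, grouped here with the APC/C, had higher RNA in every library labelled KO than in any labelled WT. Of these, Ube2s passed the test. Ube2s, which lengthens the chains on APC/C substrates through lysine 11 of ubiquitin, was at 105, 103 and 89.2 FPKM in the libraries labelled KO, against 65.6, 58.2 and 67.8 FPKM in those labelled WT. The lowest value labelled KO was above the highest labelled WT. Its mean was 1.55-fold higher, and limma estimated the log2 fold change at 0.63 (SE 0.10) with an adjusted p of 0.0258. Ube2s made up 14.3% ± 0.913 of the family's summed FPKM in the libraries labelled KO and 8.94% ± 1.20 in those labelled WT (SD, n = 3 each). The call was lost without KO 1, KO 2, KO 3, WT 1 or WT 3 (adjusted p = 0.0503 to 0.102) and kept without WT 2 (0.0495), with a log2 fold change between 0.56 and 0.70 in all of these. A single-gene exact permutation test gave p = 0.1, the smallest that 3 against 3 libraries allow. More cells of a type and more RNA per cell cannot be told apart in such bulk cultures.

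Ube2c starts the chains that Ube2s lengthens. It was at 33.9, 31.8 and 30.4 FPKM in the libraries labelled KO, against 10.99, 9.33 and 21.4 FPKM in those labelled WT. The libraries labelled KO lay close together, while WT 3 was about as far above the other libraries labelled WT as it was below those labelled KO. The log2 fold change of 1.23 (SE 0.29) missed the threshold (adjusted p = 0.0668, limma) and passed without WT 3 (log2 fold change 1.57, adjusted p = 0.0138). Part of Ube2c overlaps Tnnc2 on the same stretch of chromosome 2: 154 of its 2501 words of 100 bases occur in that gene too.

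Ube2t, the E2 of the Fanconi anaemia pathway that puts a single ubiquitin on Fancd2 at DNA crosslinks, stood with these. It was at 13.6, 13.5 and 10.1 FPKM in the libraries labelled KO, against 6.25, 9.01 and 6.03 FPKM in those labelled WT, and the groups did not overlap. Its log2 fold change of 0.73 (SE 0.19) did not pass (adjusted p = 0.0849, limma), and without WT 2 it passed narrowly (0.90, adjusted p = 0.0499). Its ligase Fancl averaged 2.85 ± 0.724 FPKM in the libraries labelled KO and 2.24 ± 0.363 FPKM in those labelled WT (SD, n = 3 each), with overlapping values.

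**Figure D2:**
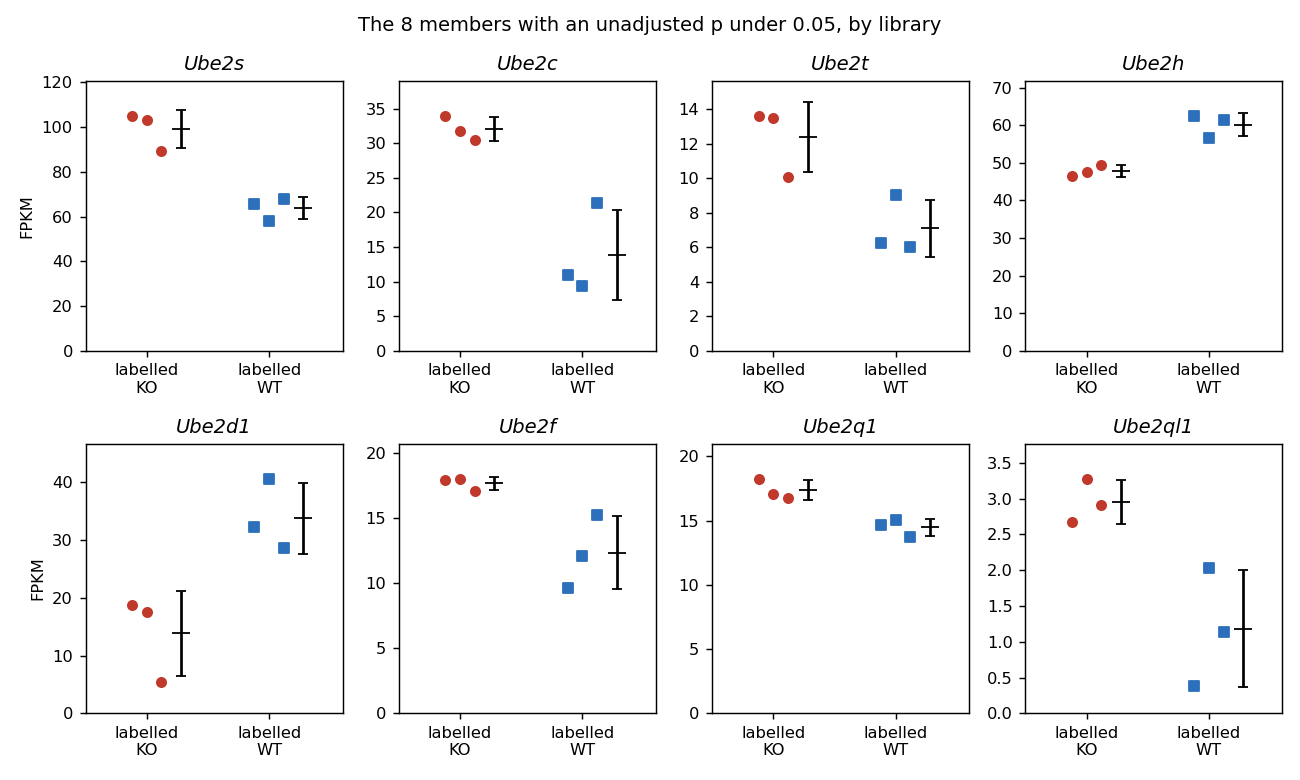
FPKM by library of the 8 members with an unadjusted p under 0.05 (circles labelled KO, squares labelled WT, bars mean ± SD, n = 3 each, axes from 0). In each panel the 2 groups do not overlap; Ube2s is the only one of the 8 with an adjusted p under 0.05.

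Proliferation markers lay on the same side as these 3 genes. Of 10 markers of dividing cells, 0 were called by limma on FPKM, 4 had an unadjusted p under 0.05, and 10 of 10 had a positive log2 fold change (median 0.36). Of all 12080 tested genes, 2972 had such a p and 5769 had a positive fold change. The summed FPKM of the 10 markers was 431 to 495 in the libraries labelled KO and 338 to 400 in those labelled WT. In estimated reads per 1000000 reads (RPM, from each isoform's coverage and length), limma called 3 of the 10 higher, beside 4.88% of all genes tested on that scale. These were Top2a (adjusted p = 0.0231), Aurka (0.041) and Cdk1 (0.0437). The part of cell division in the levels of Ube2s, Ube2c and Ube2t was not tested. By name, the mitotic kinase gene Aurka was at 38.0 ± 2.31 FPKM in the libraries labelled KO and 27.1 ± 3.26 FPKM in those labelled WT (adjusted p = 0.0676 on FPKM, limma), whereas Ccnb1, a cyclin that the APC/C destroys, was at 58.7 ± 2.56 FPKM in the libraries labelled KO and 58.3 ± 15.7 FPKM in those labelled WT (SD, n = 3 each). In the APC/C itself, 0 of 17 tested subunits, activators and inhibitors were called by limma (2 at an unadjusted p under 0.05), with a median log2 fold change of 0.04. The lowest p of the list was that of the subunit Cdc23, which was at 21.2, 30.9 and 23.0 FPKM in the libraries labelled KO, against 15.4, 15.9 and 15.5 FPKM in those labelled WT. Its groups did not overlap (log2 fold change 0.63, SE 0.15, adjusted p = 0.0668 on FPKM and 0.206 in estimated reads, limma). The activator Cdc20 was at 64.3 ± 5.65 FPKM in the libraries labelled KO and 52.1 ± 5.34 FPKM in those labelled WT, without overlap between groups (adjusted p = 0.178, limma). Anapc11, the subunit whose RING domain receives Ube2c, was at 8.77 ± 0.732 FPKM in the libraries labelled KO and 7.03 ± 1.13 FPKM in those labelled WT (SD, n = 3 each, adjusted p = 0.277, limma).

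Since these 3 genes lay on the same side, their promoters were searched on both strands for letters that occur at many genes expressed in mitosis. These were the cell cycle homology region (CHR), TTTGAA, and the CCAAT box, CCAAT. Promoters (RefSeq, GRCm38.p6, 250 bases before to 50 after a start site) were found for 28 of the 37 members, with 39 start sites. The CHR was in 4 of the 39 and the CCAAT box in 7, against 17.9% and 37.4% of all 32851 promoters of that length. The Ube2c promoter held 1 CHR and 6 CCAAT boxes, 2 of which overlap each other on opposite strands. The Ube2t promoter held 3 CCAAT boxes and no CHR. The Ube2s window held neither, but it lies within the main coding isoform, so the stretch before the first base of that isoform was not searched. Of the other members, Ube2f had 1 CHR and 3 CCAAT boxes in one of its windows, and the other CHR matches were in Ube2d2b and Ube2z. The lines show the Ube2c stretch before the first base of any of its isoforms (chr2:164769679-164769864, plus strand) and its CHR (chr2:164769888-164769917, plus strand). The last line is the stretch before the start site of Ube2t (chr1:134962315-134962564, plus strand). Capitals mark the CCAAT boxes, which read ATTGG on the minus strand, and in the second line the CHR, which reads TTCAAA on this strand.
Ube2c, upstream: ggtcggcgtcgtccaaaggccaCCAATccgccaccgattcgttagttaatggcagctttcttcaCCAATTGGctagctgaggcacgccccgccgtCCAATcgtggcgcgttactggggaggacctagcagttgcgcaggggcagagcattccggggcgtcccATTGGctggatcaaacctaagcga
Ube2c, CHR: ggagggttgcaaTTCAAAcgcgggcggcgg
Ube2t, upstream: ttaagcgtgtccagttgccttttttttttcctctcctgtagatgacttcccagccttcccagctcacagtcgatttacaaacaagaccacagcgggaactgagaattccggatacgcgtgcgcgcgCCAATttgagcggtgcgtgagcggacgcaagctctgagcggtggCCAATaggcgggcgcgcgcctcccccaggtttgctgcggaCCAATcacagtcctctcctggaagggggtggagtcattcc
The CHR of Ube2c begins 29 bases before the RefSeq start site, and the CCAAT boxes of Ube2t begin 124, 80 and 40 bases before its own. The main isoform of Ube2c, ENSMUST00000088248, already begins ahead of the CHR, at chr2:164769898, so the CHR is not upstream of that isoform. The sixth CCAAT box of Ube2c lies within an assembled isoform and is not shown. A match of letters is a description, not a site of binding.

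The other E2 enzymes of DNA damage and chromatin, Ube2a and Ube2b, are near-identical proteins that work with Rad18 at stalled replication forks and with Rnf20 and Rnf40 on histone H2B. Neither differed beyond the spread of its replicates. Ube2a was at 15.7, 16.3 and 15.4 FPKM in the libraries labelled KO, against 11.6, 18.9 and 21.3 FPKM in those labelled WT. Ube2b averaged 12.8 ± 4.48 FPKM in the libraries labelled KO and 13.8 ± 1.30 FPKM in those labelled WT (SD, n = 3 each). Their ligase Rad18 did pass the test: it was at 9.33, 9.57 and 7.70 FPKM in the libraries labelled KO, against 5.44, 4.62 and 5.14 FPKM in those labelled WT (log2 fold change 0.70, SE 0.13, adjusted p = 0.0354, limma). The Rad18 call was lost in each of the 6 fits that left out 1 library (adjusted p = 0.0621 to 0.129). Of 20 alternative fits, Rad18 was called in 9 (highest adjusted p 0.44, limma).

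The Ubc4/5 type enzymes, here the Ube2d and Ube2e genes, serve a broad range of ligases. They were grouped with Ube2l3, Ube2l6 and Ube2w, whose own roles are given below. Of this mixed group, 9 of 10 were tested, 0 were called by limma (1 at an unadjusted p under 0.05), and the median log2 fold change was -0.15. Ube2d1 was the member furthest apart. It was at 18.8, 17.5 and 5.42 FPKM in the libraries labelled KO, against 32.2, 40.5 and 28.5 FPKM in those labelled WT, and KO 3 was well below the other libraries labelled KO. Limma put its log2 fold change at -1.37 (SE 0.45) and its adjusted p at 0.138. Of its paralogs, Ube2d3 averaged 21.6 ± 1.19 FPKM in the libraries labelled KO and 24.2 ± 3.35 FPKM in those labelled WT, with overlap. Ube2d2a averaged 28.0 ± 1.14 FPKM in the libraries labelled KO and 32.1 ± 10.8 FPKM in those labelled WT (SD, n = 3 each), also with overlap. Ube2l3 had the highest mean of the group. It charges ligases of the HECT and RING-between-RING classes, among them parkin. It was at 45.7, 20.9 and 21.7 FPKM in the libraries labelled KO, against 30.5, 49.5 and 39.1 FPKM in those labelled WT, and the groups overlapped through KO 1. For Ube2l3, 1573 of 6026 words of 100 bases also occur in its neighbour Ydjc. Ube2e1 lay lower in every library labelled KO (22.5 ± 2.22 FPKM) than in those labelled WT (25.3 ± 0.931 FPKM, SD, n = 3 each), with an adjusted p of 0.365 (limma). Ube2e2 and Ube2e3 had fold changes of 0.986 and 0.80, KO label over WT label. Ube2w, which can attach ubiquitin to the amino terminus of a protein, had a fold change of 1.14. Ube2l6, the E2 for the interferon-induced modifier Isg15, was at 5.13 ± 1.31 FPKM in the libraries labelled KO and 2.82 ± 1.85 FPKM in those labelled WT (SD, n = 3 each), with overlapping values (adjusted p = 0.328, limma).

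Among the E2 enzymes known for chains through lysine 48, which mark proteins for the proteasome, 0 of 5 were called by limma (1 at an unadjusted p under 0.05). Ube2h was at 46.4, 47.6 and 49.5 FPKM in the libraries labelled KO, against 62.4, 56.7 and 61.5 FPKM in those labelled WT. The groups did not overlap and each was tight, but the difference was small: 0.795-fold, with a log2 fold change of -0.32 (SE 0.08) and an adjusted p of 0.067 (limma). Ube2h lies on chromosome 6, where the median log2 fold change of 604 tested genes was 0.27, against -0.10 to 0.08 on the other autosomes, so its direction was opposite to the median of its chromosome. Of its words of 100 bases, 1481 of 4877 also occur in Gm26526. In human cells Ube2h works with the CTLH ligase. Of the CTLH subunits, the scaffold gene Ranbp9 was called lower, at 42.5, 46.1 and 42.8 FPKM in the libraries labelled KO, against 67.5, 66.7 and 70.4 FPKM in those labelled WT (log2 fold change -0.63, SE 0.07, adjusted p = 0.0096, limma). The RING subunit gene Rmnd5a was at 43.1 ± 2.00 FPKM in the libraries labelled KO and 34.6 ± 2.36 FPKM in those labelled WT (SD, n = 3 each, adjusted p = 0.0981, limma), and its partner Maea at 28.9 ± 1.40 FPKM in the libraries labelled KO and 26.6 ± 0.733 FPKM in those labelled WT. The Ranbp9 call did not hold on reference transcripts alone (log2 fold change -0.20, adjusted p = 0.795).

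The other E2 enzymes of lysine 48 chains had wide spreads within groups. Ube2g2, which works at the endoplasmic reticulum with ligases there, was at 5.72 ± 2.22 FPKM in the libraries labelled KO and 9.42 ± 2.08 FPKM in those labelled WT (SD, n = 3 each), with overlapping values (adjusted p = 0.224, limma). Ube2r2, a partner of the cullin ligase SCF, was at 18.0, 18.6 and 9.28 FPKM in the libraries labelled KO, against 18.8, 18.8 and 22.9 FPKM in those labelled WT, and KO 3 was the lowest of the 6. The highest value labelled KO lay just under the lowest labelled WT (adjusted p = 0.392, limma), and in estimated reads the groups overlapped. The levels of Ube2g1 were 24.2, 7.49 and 30.7 FPKM in the libraries labelled KO, against 8.64, 22.3 and 26.6 FPKM in those labelled WT, a spread of over 2 times in either group. Ube2k also varied over 2 times in either group, with means of 7.21 ± 5.35 FPKM in the libraries labelled KO and 9.72 ± 4.23 FPKM in those labelled WT (SD, n = 3 each). Cdc34, the paralog of Ube2r2, averaged 6.51 ± 0.709 FPKM in the libraries labelled KO and 8.93 ± 2.93 FPKM in those labelled WT (SD, n = 3 each), with overlapping values.

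Chains through lysine 63, which signal in DNA repair and in the NF-kappa-B pathway, are built by Ube2n together with an inactive partner, Ube2v1 or Ube2v2. Of these 3 genes 0 were called by limma (0 at an unadjusted p under 0.05). Ube2v1 was at 67.2, 41.2 and 50.5 FPKM in the libraries labelled KO, against 49.5, 71.8 and 70.7 FPKM in those labelled WT, with overlap. It shares its locus with Tmem189 and the gene model Gm20431, and 1577 of its 2962 words of 100 bases occur in Gm20431, so its level is uncertain. Ube2v2 averaged 9.01 ± 0.515 FPKM in the libraries labelled KO and 7.78 ± 4.95 FPKM in those labelled WT (SD, n = 3 each), the second with a low value of 2.75 FPKM in WT 3. Ube2n was at 17.2, 19.5 and 20.3 FPKM in the libraries labelled KO, against 22.5, 41.2 and 20.8 FPKM in those labelled WT. The groups did not overlap, and the high WT 2 value came with the assembled isoform MSTRG.5913.4, at 23.6 FPKM in that library and at most 1.44 FPKM in the others.

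Reads of the pseudogene Ube2n-ps1 cannot be told from those of Ube2n by sequence alone. Of its words of 100 bases, 360 of 360 occur in Ube2n, while 360 of the 4374 words of Ube2n (8.23%) occur in the pseudogene. Ube2n-ps1 is an intronless copy on chromosome 5 within the locus of Clock, and 459 of 459 of its bases equal the coding bases of Ube2n. Ube2nl, a copy on chromosome 7, equals it at 442 of 456 bases (96.9%). The same 60 bases of each show this (coding bases 76 to 135, GRCm38 transcripts of GENCODE M21, with capitals where the copy differs from Ube2n, which is at 5 bases of Ube2nl).
Ube2n: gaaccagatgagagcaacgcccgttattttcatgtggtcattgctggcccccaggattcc
Ube2n-ps1: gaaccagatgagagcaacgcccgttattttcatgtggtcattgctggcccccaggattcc
Ube2nl: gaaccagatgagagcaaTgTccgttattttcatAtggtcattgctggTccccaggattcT
Ube2n-ps1 had 0, 0 and 1.34 FPKM in the libraries labelled KO, against 0, 12.7 and 11.5 FPKM in those labelled WT. It was thus high in 2 of the 6 libraries and listed at 0 in libraries of both labels. Limma put its log2 fold change at -2.07 (SE 1.08) with an adjusted p of 0.305, and the gene was called only without WT 1 (adjusted p = 0.0331). Ube2nl stayed below 1 FPKM in each library. How the aligner shared reads between these copies was not tested.

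The 2 E2 enzymes anchored in the endoplasmic reticulum membrane, Ube2j1 and Ube2j2, serve the ligases that discard misfolded proteins, and 0 of 2 were called by limma (0 at an unadjusted p under 0.05). Ube2j1 was at 5.73, 22.6 and 7.66 FPKM in the libraries labelled KO, against 5.57, 11.5 and 9.95 FPKM in those labelled WT, with KO 2 alone above 20 FPKM. Ube2j2 was at 13.7, 12.7 and 10.5 FPKM in the libraries labelled KO, against 8.81, 15.7 and 7.92 FPKM in those labelled WT, and the WT 2 value was the highest of all. Of 11 tested genes for degradation at the endoplasmic reticulum, 1 was called, and it was lower, beside 3.25% of all tested genes called lower. Rnf139, a membrane ligase of the endoplasmic reticulum, was at 0.965, 0.767 and 1.43 FPKM in the libraries labelled KO, against 19.4, 19.0 and 20.3 FPKM in those labelled WT (log2 fold change -3.33, SE 0.15, adjusted p = 0.00114, limma). Its groups were far apart, and it was called under all 20 alternatives (adjusted p at most 0.0492). Aup1, which recruits Ube2g2 to lipid droplets and the endoplasmic reticulum, was at 19.1 ± 4.82 FPKM in the libraries labelled KO and 34.3 ± 2.72 FPKM in those labelled WT (SD, n = 3 each) without overlap, and narrowly missed the threshold on FPKM (adjusted p = 0.0578, limma). In estimated reads it was called lower (log2 fold change -1.18, SE 0.17, adjusted p = 0.013, limma), and it lies on chromosome 6, opposite in direction to the median of its chromosome.

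Ube2m and Ube2f are the E2 enzymes of NEDD8, and neither was called by limma (Ube2f had an unadjusted p under 0.05). Ube2m was at 22.2 ± 8.18 FPKM in the libraries labelled KO and 18.6 ± 5.05 FPKM in those labelled WT (SD, n = 3 each). It shares its locus with Chmp2a and Mzf1. Its assembled isoform MSTRG.42938.12 was at 15.8 FPKM in KO 1 and at 0 in every other library. How reads were assigned at this locus was not tested. Ube2f, the E2 that pairs NEDD8 with Cul5, was at 18.0, 18.0 and 17.1 FPKM in the libraries labelled KO, against 9.66, 12.1 and 15.3 FPKM in those labelled WT (log2 fold change 0.51, SE 0.17, adjusted p = 0.137, limma). Its groups did not overlap in FPKM, but in estimated reads they did, with 25.7 ± 0.447 reads per 1000000 reads (RPM) in the libraries labelled KO and 27.5 ± 7.29 RPM in those labelled WT (SD, n = 3 each). Ube2f shares its locus with Scly.

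Of the SUMO pathway genes, Uba2, the catalytic subunit of the SUMO E1, was called higher, at 43.4, 40.7 and 39.6 FPKM in the libraries labelled KO, against 26.4, 29.9 and 30.5 FPKM in those labelled WT (log2 fold change 0.50, SE 0.09, adjusted p = 0.0333, limma). The SUMO ligase gene Pias1 was called lower, at 6.88, 7.05 and 6.32 FPKM in the libraries labelled KO, against 10.9, 13.4 and 11.7 FPKM in those labelled WT (log2 fold change -0.74, SE 0.12, adjusted p = 0.0214, limma). Both had groups well apart. The Uba2 call was lost in each of the 6 fits that left out 1 library (adjusted p = 0.0533 to 0.114), and the Pias1 call was lost without KO 1, KO 2, KO 3 or WT 3 (0.0611 to 0.0851). On the NEDD8 side, Cul1, the scaffold of SCF ligases and a target of Ube2m, was called higher: 45.6, 45.5 and 44.9 FPKM in the libraries labelled KO, against 29.8, 29.4 and 30.4 FPKM in those labelled WT (log2 fold change 0.58, SE 0.07, adjusted p = 0.00931, limma). It missed the threshold without KO 2 (adjusted p = 0.0501). Of 20 alternative fits, Uba2 was called in 9, Pias1 in 13 and Cul1 in 16. Their highest adjusted p was 0.204 for Uba2, 0.442 for Pias1 and 0.509 for Cul1 (limma). With reference transcripts only, none of these calls held. Cul1 and Rad18 both lie on chromosome 6, whose genes had the raised median given with Ube2h; the part of the chromosome in their levels was not tested.

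The large or atypical E2 enzymes are Ube2o, Ube2z, Ube2q1, Ube2q2 and Ube2ql1, and 0 of these 5 were called by limma (2 at an unadjusted p under 0.05). Ube2z, which takes ubiquitin from the second ubiquitin E1, Uba6, was at 25.4, 22.6 and 23.9 FPKM in the libraries labelled KO, against 23.6, 26.2 and 26.9 FPKM in those labelled WT, a small spread with overlap. Ube2o, which acts as E2 and E3 in one protein, averaged 9.19 ± 0.943 FPKM in the libraries labelled KO and 11.8 ± 2.43 FPKM in those labelled WT, and Ube2q2 averaged 9.04 ± 2.81 FPKM in the libraries labelled KO and 11.6 ± 3.25 FPKM in those labelled WT (SD, n = 3 each). Ube2ql1 was low throughout, with 2.68, 3.28 and 2.91 FPKM in the libraries labelled KO, against 0.389, 2.03 and 1.14 FPKM in those labelled WT. Its groups did not overlap, and its log2 fold change of 0.92 (SE 0.31) did not pass (adjusted p = 0.138, limma). Ube2q1 was at 18.2, 17.1 and 16.8 FPKM in the libraries labelled KO, against 14.6, 15.1 and 13.7 FPKM in those labelled WT, a fold of 1.20 (adjusted p = 0.158, limma).

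**Figure D3:**
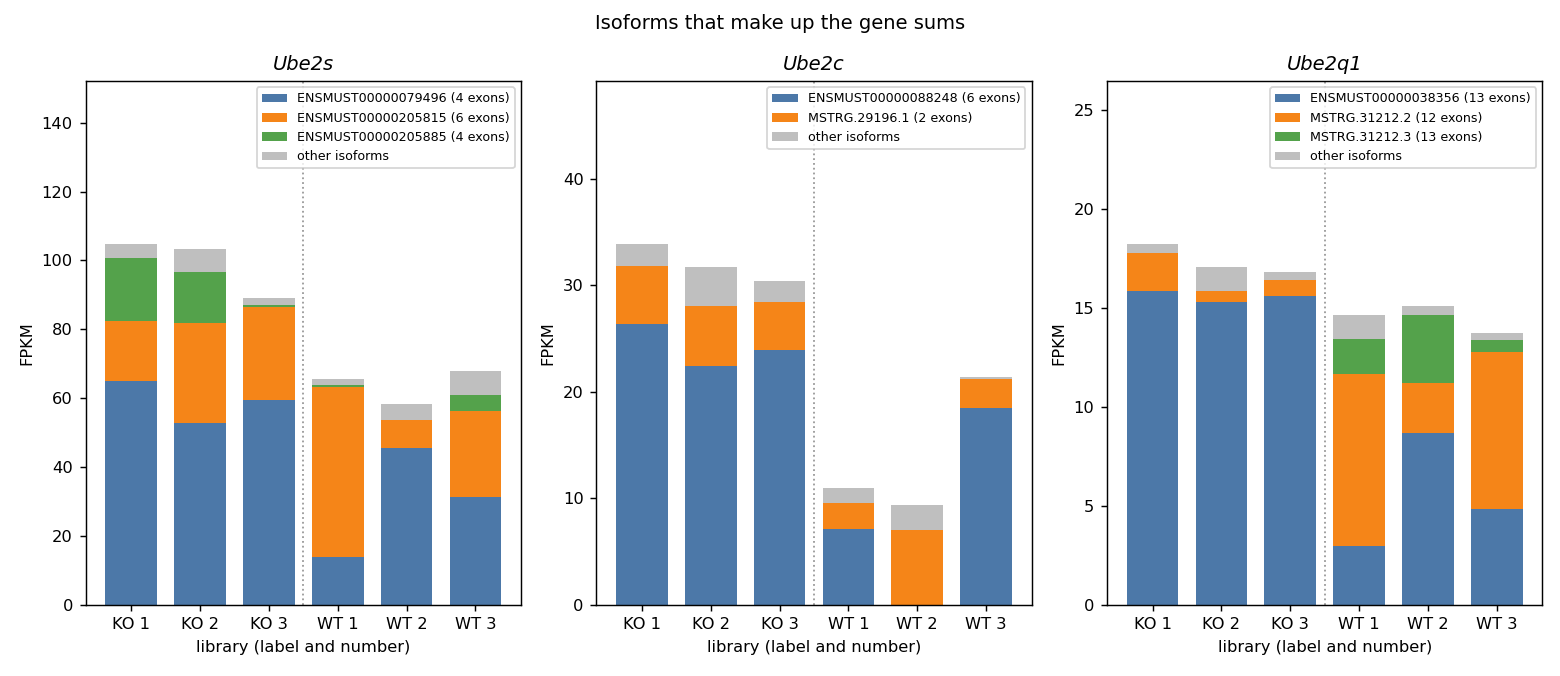
FPKM of the isoforms of Ube2s, Ube2c and Ube2q1 stacked by library, labelled KO on the left of each panel and labelled WT on the right; isoforms under 10% of the gene in both groups are pooled. The mix varies between libraries of one label, as with ENSMUST00000205815 of Ube2s, at 49.5 FPKM in WT 1 and 8.38 FPKM in WT 2.

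Isoforms of 1 gene could lie on opposite sides. The family had 222 isoforms in the sums, 40 of them assembled from reads. Of the 94 that were tested, 0 were called by limma (8 at an unadjusted p under 0.05, lowest adjusted p 0.259); over all 27399 tested isoforms 0.139% were called. The reference isoform of Ube2q1, ENSMUST00000038356, was at 15.9, 15.3 and 15.6 FPKM in the libraries labelled KO, against 2.96, 8.67 and 4.85 FPKM in those labelled WT. The assembled isoform MSTRG.31212.2, which is longer and has 12 exons in place of 13, lay on the other side, at 1.89, 0.576 and 0.818 FPKM in the libraries labelled KO, against 8.69, 2.502 and 7.93 FPKM in those labelled WT. In neither did the groups overlap (adjusted p = 0.259 and 0.318, limma), and in estimated reads the whole gene had 55.8 ± 3.53 RPM in the libraries labelled KO and 56.1 ± 5.56 RPM in those labelled WT (SD, n = 3 each). A further isoform, MSTRG.31212.3, had 0 FPKM in each library labelled KO and 1.76, 3.44 and 0.606 FPKM in those labelled WT.

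For Ube2s, the main coding isoform ENSMUST00000079496 was at 65.0, 52.8 and 59.5 FPKM in the libraries labelled KO, against 13.8, 45.4 and 31.4 FPKM in those labelled WT (adjusted p = 0.463, limma). ENSMUST00000205815, with 6 exons against 4, was at 17.5, 29.0 and 27.0 FPKM in the libraries labelled KO, against 49.5, 8.38 and 24.8 FPKM in those labelled WT, and overlapped. The short ENSMUST00000205885 was at 18.2, 14.8 and 0.659 FPKM in the libraries labelled KO, against 0.478, 0.00309 and 4.91 FPKM in those labelled WT. The sum of Ube2s was thus steadier than any of these parts. Of the 5136 words of 100 bases of Ube2s, 86 also occur in Rpl28. Ube2c was mostly ENSMUST00000088248, at 26.4, 22.4 and 23.9 FPKM in the libraries labelled KO, against 7.09, 0 and 18.5 FPKM in those labelled WT; its assembled isoform MSTRG.29196.1 overlapped between groups. In Ube2t, ENSMUST00000027687 and MSTRG.2398.3 had higher values in each library labelled KO than in any labelled WT, ENSMUST00000027687 at 7.47 ± 2.19 FPKM labelled KO and 3.85 ± 0.664 FPKM labelled WT, and MSTRG.2398.3 at 3.04 ± 0.575 FPKM labelled KO and 1.51 ± 0.177 FPKM labelled WT (SD, n = 3 each). The isoform ENSMUST00000139617 of Ube2t was at 1.88 ± 0.531 FPKM in the libraries labelled KO and 1.74 ± 1.67 FPKM in those labelled WT (SD, n = 3 each), with overlap, and ENSMUST00000185369 was at most 0.0146 FPKM in any library.

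The remaining members ranged from 1 main isoform to a mix of several. Ube2h was 98.7% ENSMUST00000102993 by mean FPKM in the libraries labelled KO and 97.7% in those labelled WT. Ube2d1 was 93.0% ENSMUST00000020085 in the libraries labelled KO and 72.0% in those labelled WT, where MSTRG.5128.2 reached 12.7 FPKM in WT 2 and MSTRG.5128.3 reached 12.3 FPKM in WT 1. Ube2j1 differed in make-up: ENSMUST00000124992 was at 5.18, 14.3 and 6.56 FPKM in the libraries labelled KO, against 3.12, 3.20 and 2.02 FPKM in those labelled WT, without overlap (adjusted p = 0.377, limma). Its assembled isoform MSTRG.33265.1 averaged 2.75 ± 3.87 FPKM in the libraries labelled KO and 6.04 ± 3.29 FPKM in those labelled WT (SD, n = 3 each), with overlap. In Ube2f the isoform with the longest sequence, ENSMUST00000171165, averaged 1.00 ± 0.181 FPKM in the libraries labelled KO and 2.84 ± 1.73 FPKM in those labelled WT without overlap, while ENSMUST00000178627 was at 9.14 ± 2.27 FPKM in the libraries labelled KO and 5.06 ± 2.62 FPKM in those labelled WT, again without overlap (SD, n = 3 each). Isoforms lower in each library labelled KO than in any labelled WT were also found in Ube2a, Ube2d1, Ube2e2, Ube2e3, Ube2h, Ube2w, Ube2m and Ube2k. Isoforms higher in each library labelled KO were found in Ube2d3, Ube2e2, Ube2j2 and Ube2k too, all too low to be tested. The share of isoforms without overlap was not computed over the whole table, so these lists do not set the family's isoforms apart. In Ube2e3, ENSMUST00000121433 was at 5.98, 6.28 and 2.71 FPKM in the libraries labelled KO, against 8.399, 10.6 and 10.4 FPKM in those labelled WT (adjusted p = 0.436, limma). In Ube2w, whose sum had a fold change above 1, ENSMUST00000117146 was at 5.59 ± 0.657 FPKM in the libraries labelled KO and 8.01 ± 1.21 FPKM in those labelled WT (SD, n = 3 each, adjusted p = 0.555, limma). It made up 41.5% of the gene in the libraries labelled KO and 67.9% in those labelled WT. In Ube2m, ENSMUST00000138357 was at 3.57 ± 0.522 FPKM in the libraries labelled KO and 5.77 ± 2.40 FPKM in those labelled WT (SD, n = 3 each, adjusted p = 0.611, limma). MSTRG.37352.11 of Ube2k and the lower isoform of Ube2e2, ENSMUST00000076133, were too low to be tested. Isoforms of at least 10% of Ube2a (ENSMUST00000016452), Ube2l3 (ENSMUST00000090192) and Ube2v1 (ENSMUST00000109207) overlapped between groups. So did those of Ube2j2, apart from ENSMUST00000024056 (2.38 ± 0.527 FPKM labelled KO and 3.22 ± 0.299 FPKM labelled WT, SD, n = 3 each).

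Estimated reads depend less on how a gene's reads are split among long and short isoforms, since each isoform's coverage is multiplied by its length. On that scale, in RPM and with the same model, 4 of 35 tested members were called. Of all 13210 genes tested on that scale, 4.88% were called higher and 4.25% lower. Ube2s was at 117, 111 and 110 RPM in the libraries labelled KO, against 79.8, 81.2 and 74.6 RPM in those labelled WT (log2 fold change 0.52, SE 0.07, adjusted p = 0.014, limma). Ube2c was at 44.9, 45.2 and 39.9 RPM in the libraries labelled KO, against 16.7, 24.2 and 25.6 RPM in those labelled WT (0.96, SE 0.18, adjusted p = 0.0317, limma). With this measure WT 3 no longer stood apart from the other libraries labelled WT. Ube2t was at 28.4, 33.6 and 25.3 RPM in the libraries labelled KO, against 13.3, 17.7 and 14.7 RPM in those labelled WT (0.89, SE 0.17, adjusted p = 0.03, limma). Ube2h was the one called lower, at 214, 219 and 229 RPM in the libraries labelled KO, against 282, 262 and 281 RPM in those labelled WT (-0.32, SE 0.06, adjusted p = 0.0383, limma). The reads behind these values numbered between 484 and 1385 per library for Ube2c, 385 and 1030 for Ube2t, 2309 and 3593 for Ube2s, and 6065 and 10161 for Ube2h.

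**Figure D4:**
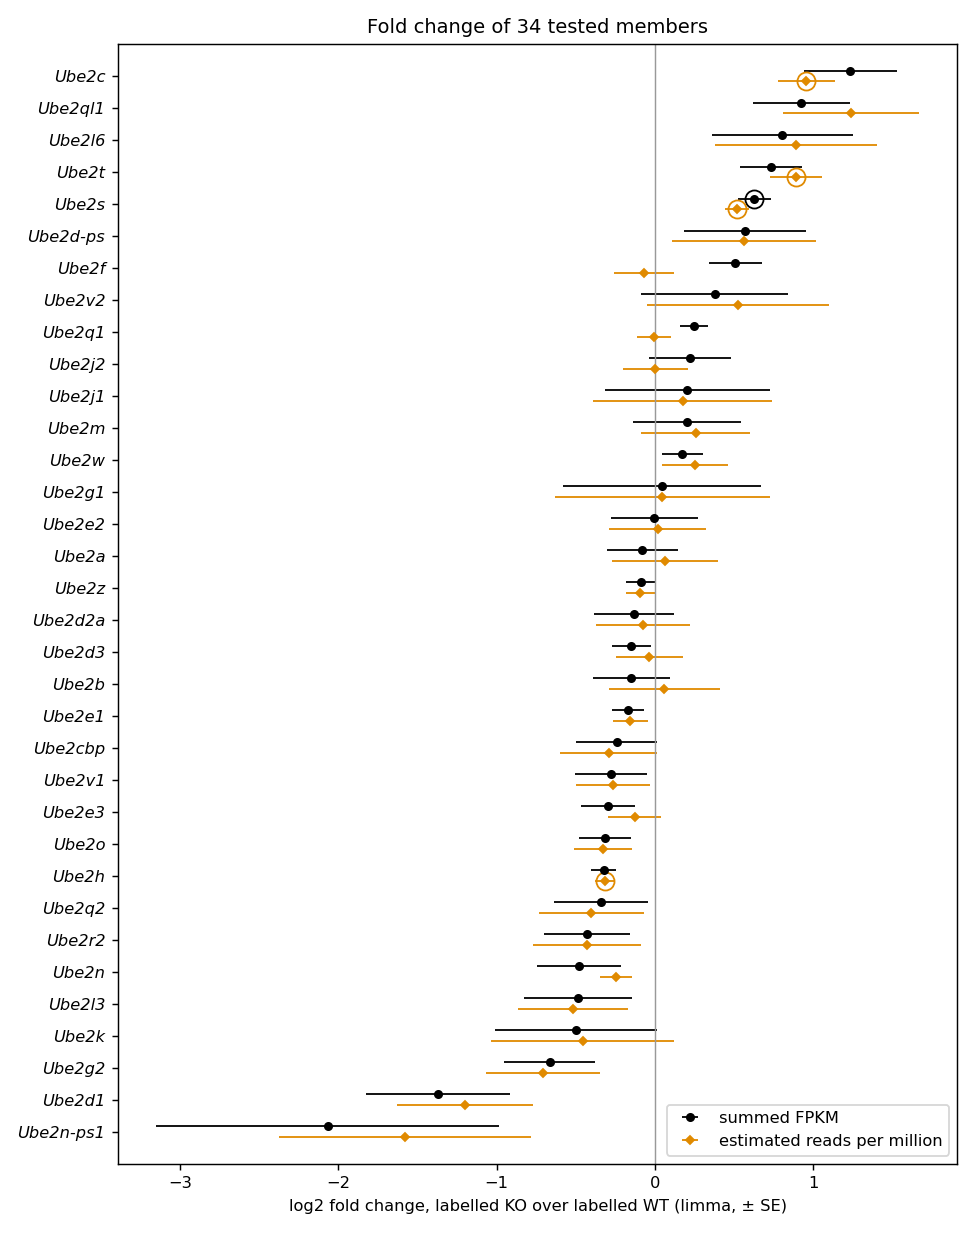
Log2 fold change (labelled KO over labelled WT, bars SE from limma, n = 3 each) of 34 tested members in summed FPKM (black circles) and estimated RPM (orange diamonds), with rings around those of adjusted p under 0.05. Ube2s is ringed on both scales, and Ube2c, Ube2t and Ube2h in estimated reads only.

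Low members gave little to compare. Ube2d-ps, a transcribed pseudogene that shares its locus with Dbnl, was at 3.60 ± 1.41 FPKM in the libraries labelled KO and 2.20 ± 1.26 FPKM in those labelled WT (SD, n = 3 each). Ube2cbp was at 0.979, 1.03 and 0.765 FPKM in the libraries labelled KO, against 1.44, 0.651 and 1.89 FPKM in those labelled WT, and overlapped. Ube2d2b, an intronless relative of Ube2d2a, had 0.211, 0 and 0 FPKM in the libraries labelled KO, against 0.245, 0.0579 and 0 FPKM in those labelled WT, and with Ube2nl was too low to be tested. At these depths 3 reads on a transcript of 2000 bases are worth 0.0414 to 0.0529 FPKM, a limit from counting error only.

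The wider pathway was read from lists of genes that work with the E2 enzymes. Of 111 such genes 107 were tested, and limma called 3 higher (Uba2, Rad18, Cul1) and 3 lower (Rnf139, Pias1, Ranbp9) in the libraries labelled KO, 5.61% of those tested, beside 6.9% of all genes. The median log2 fold change was -0.05 over these genes and -0.02 over all tested genes. By list, 1 of 8 tested E1 genes was called (Uba2), 0 of 8 E2-like genes with other symbols (1 at an unadjusted p under 0.05) and 0 of 11 genes of ubiquitin and related modifiers (0 at an unadjusted p under 0.05). Then came 0 of 17 APC/C genes, 1 of 13 ligases of lysine 63 chains and DNA damage, 1 of 11 endoplasmic reticulum genes, 2 of 19 cullin, neddylation and SUMO partners, and 1 of 20 other partners. The main ubiquitin E1, Uba1, was at 154, 145 and 156 FPKM in the libraries labelled KO, against 183, 169 and 180 FPKM in those labelled WT, without overlap (log2 fold change -0.22, adjusted p = 0.15, limma). Uba3, the catalytic subunit of the NEDD8 E1, was at 36.3 ± 1.02 FPKM in the libraries labelled KO and 28.5 ± 0.633 FPKM in those labelled WT (SD, n = 3 each) and narrowly missed the threshold on FPKM (adjusted p = 0.0521, limma). In estimated reads it was called higher (log2 fold change 0.41, SE 0.08, adjusted p = 0.0324, limma), and it too lies on chromosome 6 with its raised median. On that scale 8 of the partner genes were called, the 6 named above with Uba3 and Aup1. Ubb, a polyubiquitin gene, was at 279.3, 112 and 122 FPKM in the libraries labelled KO, against 134, 327 and 165 FPKM in those labelled WT with overlap (adjusted p = 0.742, limma).

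**Figure D5:**
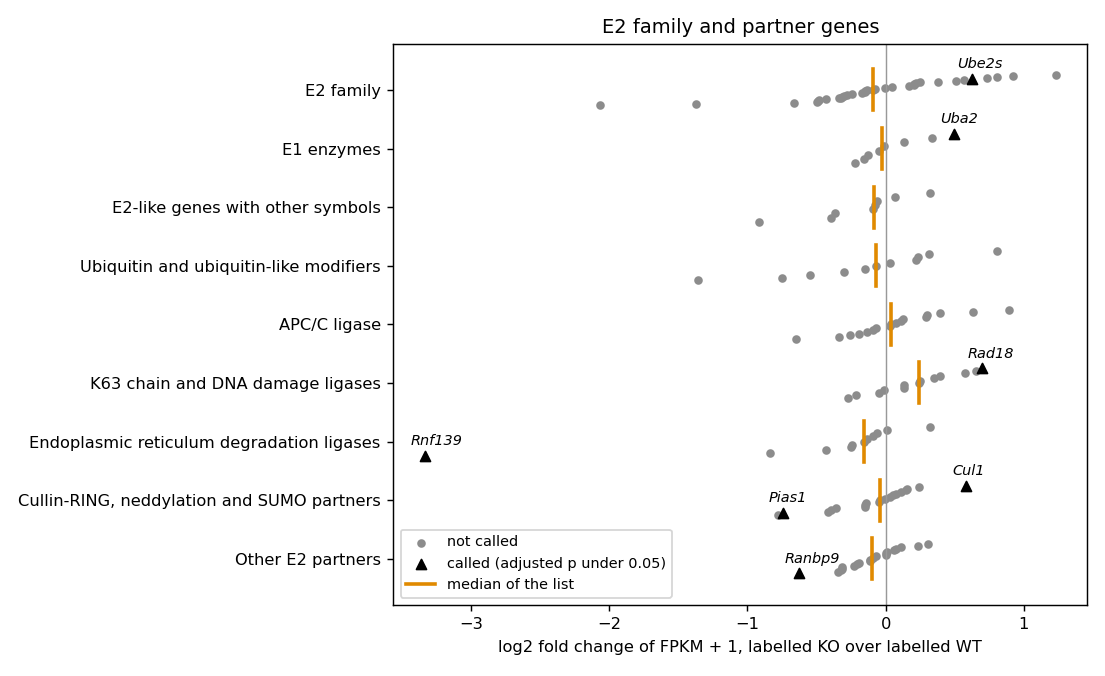
Log2 fold change (labelled KO over labelled WT, n = 3 each) of tested genes of the E2 family and of 8 lists of partner genes, with called genes as triangles and each list's median as an orange bar. Of the partner genes 6 are called, among which Rnf139 has the lowest log2 fold change, -3.33.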

How the data were processed

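The authors' deposited table gives FPKM per isoform and library, and coverage, a signal of mean reads per base. The tools in the submitters' processing notes are StringTie, TopHat2, Bowtie2, FastQC and cutadapt; versions and the genome build are not given in the sources used here. Columns with the letters NT were matched to WT by elimination and number. No value column was left unused (0). Of the family's isoforms found in GENCODE M21, 98.3% had identical coordinates. FPKM was summed per symbol over the class codes that overlap a named gene's exons (95506 of 125793 isoforms).

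Genes with a mean of at least 1 FPKM were tested with limma 3.58.1 (R 4.3.3, mean-variance trend) on log2(FPKM + 1), which understates the change of low genes, with Benjamini-Hochberg adjustment over all of them. The procedure was tested on simulated data. Estimated reads (coverage times length over 150) were added after seeing the data. Members and lists were chosen with earlier results of these data known. Values by library are given for called members, the 6 next by p, and the highest of each role group, and Ube2q1 and others by library were chosen after their values were seen. Values of 1 member and of some partner genes are not reported here; counts and medians include them. Sequences came from RefSeq and GENCODE. Python 3.11.15, pandas 2.3.3, numpy 2.4.6 and matplotlib 3.10.9 were used.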

Additional observations from a re-analysis of the deposited data

How the results depend on the processing

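The count of called members was 1, Ube2s, in the reported fit and under every class code, a minimum mean of 5 FPKM, scaling by median ratio, by quantile or per 1000000, robust variance, no mean-variance trend and pseudocounts of 0.1 or 5. It was 0 with the highest isoform only, with no filter, with reference transcripts only and with a replicate block, and 4 in estimated reads or at an adjusted p under 0.1. Leaving out 1 library gave 0 to 2 calls: 0 without each library labelled KO, Ube2n-ps1 without WT 1, Ube2s and Ube2t without WT 2, and Ube2c without WT 3. Partner genes called numbered 6 as reported, 1 with the highest isoform only, with reference transcripts only and with a replicate block, 10 at an adjusted p under 0.1, 8 in estimated reads, and 2 to 6 without 1 library. No E2 isoform was called under any alternative run (0 in each).

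Of 674 recalculated fold changes of 34 members, 628 kept direction and call and 31 changed direction, none of them in a called gene. In estimated reads the log2 fold change was 0.0641 for Ube2a, 0.0594 for Ube2b, 0.018 for Ube2e2, -0.0684 for Ube2f and -0.0056 for Ube2q1. With the highest isoform only it was 0.17 for Ube2a, -0.065 for Ube2d-ps, 0.0619 for Ube2e2, -0.33 for Ube2j2, 1.12 for Ube2k, -0.0634 for Ube2m and -0.45 for Ube2w. With reference transcripts only it was 0.0147 for Ube2e2, 0.20 for Ube2k, -0.26 for Ube2m and -0.16 for Ube2w, with every class code -0.0757 for Ube2w, and for Ube2e2 0.0451 when scaled per 1000000 and 0.0165 with quantile scaling. Without 1 library it ran from -0.33 to 0.0846 for Ube2a, -0.39 to 0.0626 for Ube2b, -0.42 to 0.0801 for Ube2d2a, -0.19 to 0.23 for Ube2e2, -0.42 to 0.62 for Ube2g1, -0.34 to 0.57 for Ube2j1 and -0.14 to 0.79 for Ube2v2. The cause of these changes was not tested. Of 120 recalculated fold changes of called partner genes 0 changed direction and 36 lost the call.

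Samples with the same replicate number showed little shared deviation (correlations 0.01, -0.003 and 0.07 for numbers 1 to 3). Samples of unlike numbers had correlations from -0.04 to 0.03. Such values cannot decide whether the numbers pair samples by animal or batch. With a replicate block Ube2s had an adjusted p of 0.133 (limma) at the same log2 fold change (0.63). With 3 libraries a group, the depth of single isoforms and the copies of Ube2n limit what these values can show.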

Other observations

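Isoforms left out of the gene sums because they lie in introns or run on past a gene also carried member names. There were 21 of them, in Ube2cbp, Ube2d1, Ube2h, Ube2q2, Ube2s, Ube2v2 and Ube2w, and their summed FPKM was 5.05, 11.9 and 6.39 in the libraries labelled KO, against 7.91, 32.9 and 6.27 in those labelled WT. The WT 2 library was the highest of the 6. The 6 intronic isoforms of Ube2s summed to 2.77, 4.09 and 2.79 FPKM in the libraries labelled KO, against 1.84, 10.8 and 3.51 FPKM in those labelled WT, and the 8 of Ube2w to 1.63, 3.48 and 2.34 FPKM in the libraries labelled KO, against 3.41, 12.3 and 1.503 FPKM in those labelled WT.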
